A study of Drosophila melanogaster with 4 samples.

Results

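The intermediate H3K27me2 clusters of the large autosome arms are stretches of 4 to 10 kb in which chromatin of wild-type Drosophila melanogaster larvae was enriched for histone H3 dimethylated at lysine 27. They were chosen by arm and length from the combined list of enriched regions that the authors deposited for the replicate set. A region counts as a member when it lies on 2L, 2R, 3L or 3R and measures at least 4 kb and less than 10 kb. The rule found 3013 members among 12281 clusters on these 4 arms and 16862 clusters in the whole list. The study holds 2 samples of chromatin immunoprecipitation followed by sequencing (ChIP) with antibody Ab24684 and 2 input samples, in which DNA was sequenced without immunoprecipitation. All 4 samples came from nuclei of Oregon-R larvae of the third instar, the last larval stage, wild type in genotype, and no treatment is named. The labels name no tissue or sorted cell type, so a cluster cannot be assigned to particular cells of the larva. Whether each replicate had its own larval population is not said in the labels, and their spread may be technical.

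H3K27me2 is set by Polycomb repressive complex PRC2, whose catalytic subunit in the fly is E(z), and it is the state through which the lysine passes on the way to H3K27me3. In flies the trimethyl form is concentrated over the silent targets of the Polycomb system, while the dimethyl form spreads widely over silent and intergenic chromatin. The same lysine can be acetylated at active genes and enhancers, which bars its methylation there. A cluster is a run of sequence in which the authors' caller scored the ChIP as enriched, so its length depends on the mark, on the sequencing depth and on the rules of the caller. The sources used here give neither depth nor rules. Gene positions in the genome release of the files were not used, and the members are described by position only.

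The smallest two-sided p that exact sign-flip permutation can give for 2 ChIP samples is 0.5, so no test was made, and all values below are descriptions. Length chose the members, and the combined list rests on the same libraries as the lists of the single replicates. Cover of the members by a replicate list is therefore not independent evidence. The length rule applied within 1 replicate and read in the other is given separately. There the covering library did not choose the regions, but the replicates may still not be independent samples.

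In the combined list, members held 18.5 Mb, or 35.5% of the cluster bases on the 4 arms, against 34.1% in 8329 clusters under 4 kb and 30.4% in 939 clusters of at least 10 kb. By number they were 24.5% of the autosomal clusters. Their median length was 5749 bp, with quartiles of 4782 and 7250 bp. Numbers fell with each 1 kb of length, from 947 members of 4 to 5 kb to 218 members of 9 to 10 kb. The shortest members measured 4003 and 4004 bp with scores of 0.63 and 0.67, and the 2 longest clusters just under the limit both measured 3999 bp and scored 0.65. At the upper limit a member of 9973 bp scored 0.89 and one that ended 1 bp short of 10 kb scored 0.53, and the next clusters, of 10003 and 10013 bp, scored 0.81 and 0.85.

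The same length rule applied to the lists of the single replicates gave fewer regions. There were 2621 in replicate 1 over 15.7 Mb and 2384 in replicate 2 over 14.0 Mb, on average 2502.5 ± 168 (SD, n = 2). Their share of the autosomal cluster bases was 36.8% ± 0.35 (SD, n = 2), beside 35.5% in the combined list. The other classes were divided differently there. Clusters under 4 kb held 46.1% of the bases in replicate 1 and 49.8% in replicate 2, and those of at least 10 kb held 17.3% and 13.2%.

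All 4 arms carried members at similar density. The combined list held 717 on 2L, 628 on 2R, 752 on 3L and 916 on 3R. This amounts to 31.2, 29.7, 30.6 and 32.8 members per Mb, or 19.2%, 18.5%, 18.5% and 20.2% of the sequence of each arm. In the replicate lists the same length class took 13.2% ± 0.993 of 2L, 16.8% ± 1.17 of 2R, 14.4% ± 0.969 of 3L and 17.0% ± 1.62 of 3R (SD, n = 2 each). There 2L and 3L lay below 2R and 3R in each replicate, and in the combined list that order was not seen.

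The score is the authors' own value for a region, above 0 for enrichment. Its scale is not stated, so no fold is derived from it. Members had a median score of 0.64, with quartiles of 0.53 and 0.78 and a range of 0.21 to 1.77. They stood between the shorter autosomal clusters (median 0.39) and those of at least 10 kb (0.79). The length rule in the replicate lists gave medians of 0.89 (replicate 1) and 0.70 (replicate 2), which average 0.80 ± 0.14 (SD, n = 2). In both, the order of the 3 length classes was the same, with 0.57, 0.89 and 1.08 in replicate 1 and 0.57, 0.70 and 0.78 in replicate 2. The spread within the class had an SD over clusters of 0.25 in replicate 1 and 0.10 in replicate 2.

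Length still went with score inside the narrow window. The median score was 0.58 for members of 4 to 5 kb, 0.62 for 5 to 6 kb, 0.66 for 6 to 7 kb, 0.69 for 7 to 8 kb, 0.68 for 8 to 9 kb and 0.70 for 9 to 10 kb. The quartiles of neighbouring steps overlapped widely, and over the 3013 members the Spearman coefficient of length and score was 0.234. These points share libraries and neighbouring sequence, so the coefficient is a description. Among the arms, 2R had the highest median score (0.68), against 0.63 on 2L, 3L and 3R, and it was also highest in the lists of replicate 1 (0.94) and replicate 2 (0.72). Exact ties in score were rare among members, 118 or 3.92%, against 16.1% of all autosomal clusters.

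**Figure D1:**
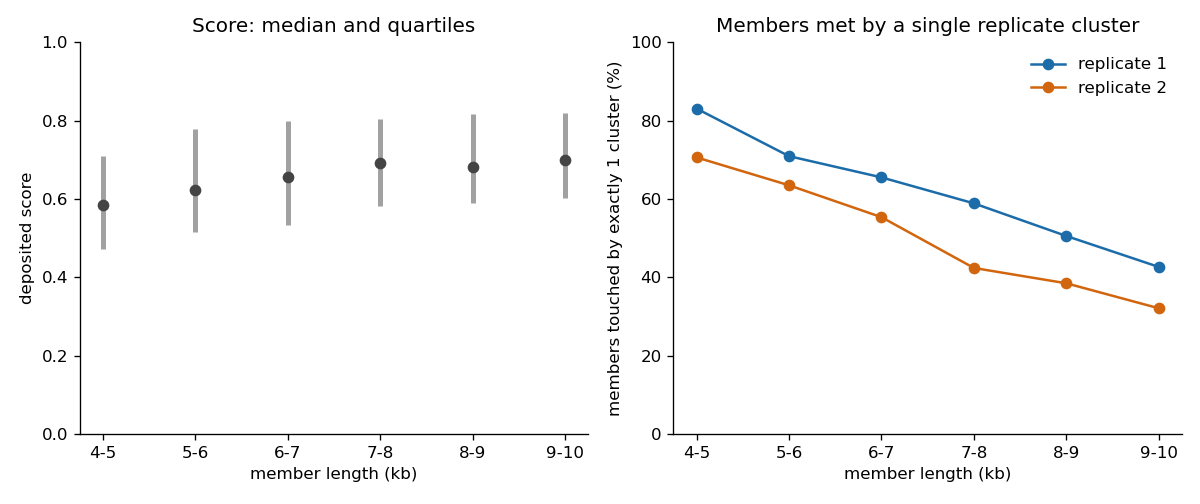
Left, deposited score of members of the combined list by length in steps of 1 kb, with the median as a point and the quartiles as a bar; the median goes from 0.58 to 0.70. Right, share of members touched by exactly 1 cluster of each replicate list, which is 83.1% and 70.6% at 4 to 5 kb and 42.7% and 32.1% at 9 to 10 kb.

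The 5 members with the highest scores lay on 2R, 2L and 3L, and 4 of them were within 2 Mb of the centromere side of their arm. Of all 3013 members, 106 lay within 1 Mb of that side and 94 at 1 to 2 Mb. The top member was 2R 181472 to 188389, of 6.92 kb, with a score of 1.77, covered 98.3% by clusters of replicate 1 and 96.1% by those of replicate 2. Next came 2L 22401798 to 22408486 with a score of 1.72 and cover of 97.6% and 94.5%. The member at 2L 22711584 to 22718315 scored 1.61, with cover of 86.6% and 88.7%. Cover was high in both replicates at all 3 places.

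The fourth departed from this. It lay at 2R 10776832 to 10781334 with a score of 1.59, was covered 100% by a cluster of replicate 1 scored 2.12, and was not touched by any cluster of replicate 2. The fifth, at 3L 23049812 to 23055580, scored 1.56 and was covered 96.2% and 100%. On 3R the highest score was lower, 1.25 at 14512407 to 14517915, with cover of 97.9% and 72.3%.

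Members with the lowest scores were covered unevenly. The lowest, at 2R 2851894 to 2856678, scored 0.21 and was covered 54.3% by replicate 1 and 37.8% by replicate 2. At 3R 15791986 to 15797054 (score 0.22) cover was 0% and 75%. By contrast, 3R 17467384 to 17473004 (0.23) had 58.2% and 0%, and 2L 16451723 to 16455985 (0.23) had 40.3% and 0%. The last of these 5, 2R 7661979 to 7666138 (0.24), had 80.1% and 37.8%. In 3 of the 5 a single replicate carried all of the cover.

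Most member sequence was marked in both replicates. Of the member bases, 65.9% lay in clusters of both replicates, 19.9% in replicate 1 only, 8.78% in replicate 2 only and 5.47% in neither. Replicate 1 covered 85.7% of the bases and replicate 2 covered 74.7%, a mean of 80.2% ± 7.83 (SD, n = 2). As background, the members were moved around their own arm by every possible circular shift, which keeps their lengths and spacing. The mean over all shifts is the covered share of the arms, 44.4% for replicate 1 and 39.2% for replicate 2. Observed cover was above it in both replicates.

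Counted member by member, 2874 (95.4%) were covered over at least 50% of their length by replicate 1 and 2524 (83.8%) by replicate 2. The corresponding shares of all autosomal clusters were 76.0% and 62.2%. When regions of the same lengths were placed at steps of 100 bp around the arm, 44.8% and 39.6% of the placements reached that cover. In the other length classes the shares were 66.3% and 50.5% for clusters under 4 kb and 99.9% and 97.1% for those of at least 10 kb. Members stood between these, and each class was covered more by replicate 1 than by replicate 2. Full cover was rare, with 119 members (3.95%) covered from end to end by replicate 1 and 136 (4.51%) by replicate 2.

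**Figure D2:**
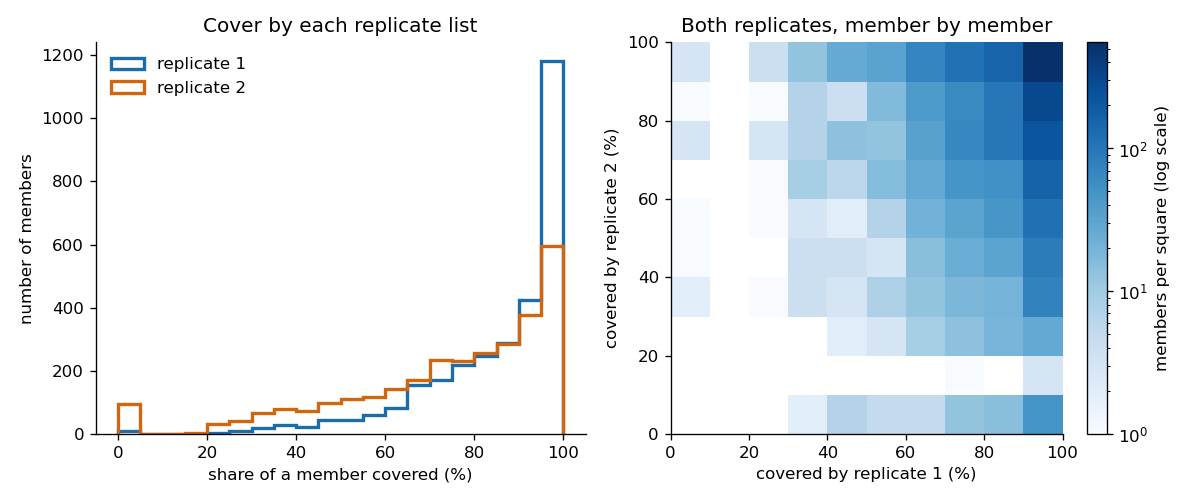
Left, number of members by the share of their length in clusters of each replicate, in steps of 5 percentage points; the median is 91.5% for replicate 1 and 80.2% for replicate 2. Right, number of members by cover in replicate 1 (horizontal) and replicate 2 (vertical) on a log colour scale; the row at the bottom holds the 91 members untouched by replicate 2, and no member lies in the corner where both are at 0%.

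The length rule read across replicates gave a similar picture from libraries that did not choose the regions. Clusters of 4 to 10 kb in replicate 1 were covered 79.9% by replicate 2, where shifts gave 39.4%. Those of replicate 2 were covered 86.5% by replicate 1, against 44.7% for shifts. The mean over both directions was 83.2% ± 4.62 (SD, n = 2). At least 50% of the length was covered in 2320 of 2621 (88.5%) and 2207 of 2384 (92.6%), against 39.8% and 45.2% of placements. Only 54 and 30 of these clusters, in this order, were not touched by the other replicate. Clusters under 4 kb of the same lists had less of their bases covered, by 18.9 and 10.6 percentage points. Those of at least 10 kb were not read across replicates, so high cover is not shown to be particular to this class.

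Both replicates covered at least 50% of 2415 members (80.2%). A further 459 (15.2%) passed in replicate 1 only, 109 (3.62%) in replicate 2 only and 30 (0.996%) in neither. Of all autosomal clusters, 76.0% passed in replicate 1 and 62.2% in replicate 2. Their joint share was not computed, so the joint counts of members have no background here. The median score was 0.67 where both passed, 0.53 and 0.44 where replicate 1 or replicate 2 alone did, and 0.39 where neither did. Median lengths followed the same order, 5958, 5202, 5019 and 4405 bp. Across 3013 members the Spearman coefficient was -0.014 between cover by replicate 1 and by replicate 2, and 0.453 and 0.405 between the score and each. Between the scores of the replicate clusters with the largest overlap it was 0.484, over the 2911 members touched by both. All are descriptions, of members selected in a list that rests on both libraries.

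Few members were missed by a replicate, and their median score was low. Replicate 1 left 11 untouched, with a median score of 0.28, and replicate 2 left 91, with a median score of 0.45 and a median length of 4673 bp. Of all 12281 autosomal clusters, replicate 1 left 2649 untouched and replicate 2 left 3792. Among the 939 of at least 10 kb these numbers were 0 and 2, so misses became fewer with length class. All 3013 members were touched by at least 1 replicate. In the lowest score quartile (median 0.46) cover averaged 73.9% in replicate 1 and 59.4% in replicate 2, and in the highest (0.89) it averaged 93.5% and 85.7%. The lowest quartile held all 11 members untouched by replicate 1 and 68 of the 91 untouched by replicate 2. The highest quartile held 4 of the 91, among them the member at 2R 10776832 to 10781334 with a score of 1.59. Strong disagreement was one-sided: 67 members were covered at least 80% by replicate 1 and under 20% by replicate 2, and 4 the other way round. Of these 4, 3 lay within 3 Mb of the centromere side, where 324 (10.8%) of all members lie. Replicate 1 also covered more over all autosomal clusters, 81.3% of their bases against 69.5% for replicate 2. Strong disagreement was not counted there, so its one-sidedness is not shown to be particular to members.

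The 5 members with the lowest mean cover had scores of 0.24 to 0.39. At 3R 16189106 to 16193265 replicate 1 covered 31.6% and replicate 2 covered 0%. The order was the opposite at 2L 11574893 to 11579138, with 0% and 33.6%, and at 3L 20549784 to 20554195, with 0% and 37.4%. At 3L 13099876 to 13104896 cover was 38.3% and 0%, and at 2L 3410200 to 3414299 it was 0% and 40.1%. In each of the 5, a single replicate supplied all the cover. Choice by the lowest mean cover favours such members, so this is no separate finding.

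Members were often met by more than 1 cluster of a replicate. In replicate 1, 2064 members (68.5%) were touched by exactly 1 cluster, 832 by 2, 104 by 3 and 2 by 4. In replicate 2 these numbers were 1725 (57.3%), 1020, 163 and 14. Among members of 4 to 5 kb, 83.1% met a single cluster of replicate 1, and among those of 9 to 10 kb 42.7% did. Those touched by 2 clusters in replicate 1 had a median length of 6428 bp, against 5426.5 bp where there was 1.

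The length class of a member often differed in a replicate. By the replicate cluster that shared most bases with it, a member matched a cluster of 4 to 10 kb in 59.4% of cases in replicate 1 and 43.1% in replicate 2. It matched one under 4 kb in 39.9% and 51.7%. A match of at least 10 kb was found for 8 members in replicate 1 and 66 in replicate 2, where the replicate cluster was longer than the member. Read from the replicates, 68.8% of the clusters of 4 to 10 kb in replicate 1 and 54.4% of those in replicate 2 had their main overlap with a member. A further 30.3% and 38.2% fell into combined clusters of at least 10 kb.

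Missing cover was found mainly at the ends of members. In replicate 1, 11.0% of the member bases lay uncovered outside the outermost replicate clusters, 3.00% lay between clusters and 0.286% in untouched members. The shares in replicate 2 were 18.1%, 4.71% and 2.48%. Ends fell short by a median of 282.5 bp in replicate 1 and 624 bp in replicate 2, summed over both ends of a touched member. Inner gaps occurred in 933 members in replicate 1 and 1195 in replicate 2, with medians of 345 and 455 bp.

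In the outermost 500 bp inside the edges, 64.1% of positions were covered by replicate 1 and 50.3% by replicate 2. In the fourth 500 bp inward, cover was 92.7% and 81.1%. The mean rise from the outer to the inner window was 29.7 ± 1.61 percentage points (SD, n = 2). Outside the edges cover fell to 12.3% and 20.3% within 500 bp, then recovered to 50.9% and 46.3% between 4 and 5 kb, above the arm means of 44.4% and 39.2%. The edges are by definition the ends of combined clusters, so a dip just outside them is no finding. Within 500 bp outside, 10.6% of positions lay in a cluster of replicate 2 but in none of the combined list, against 2.15% for replicate 1.

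**Figure D3:**
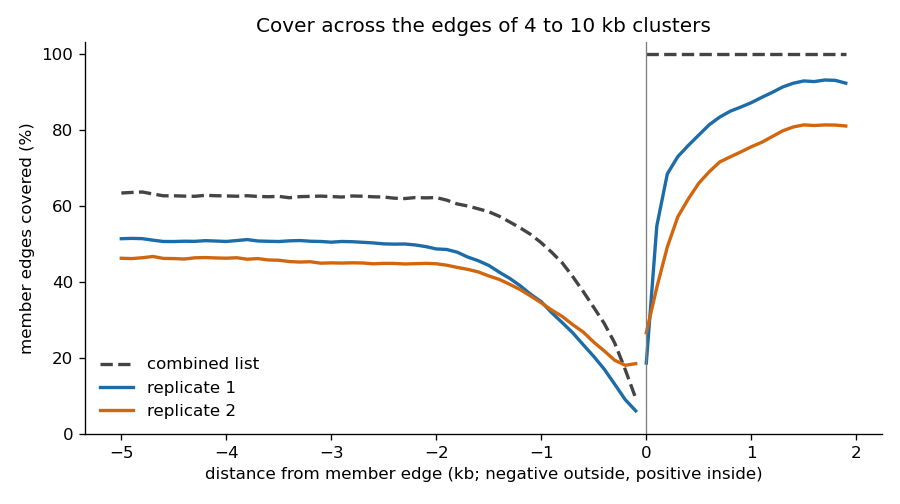
Share of member edges covered by the combined list and by each replicate list, against distance from the edge in kb, negative outside and positive inside, averaged over both edges of 3013 members. Replicate 1 lies above replicate 2 inside (92.7% and 81.1% in the fourth 500 bp), except at the first base inside the edge (18.7% and 26.7%). Just outside it lies below replicate 2 (12.3% and 20.3% within 500 bp).

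Members lay close to other clusters. The gap from a member to its nearer neighbour had a median of 414 bp, against 619 bp for clusters under 4 kb and 321 bp for those of at least 10 kb. It was under 1 kb for 73.3% of members and over 10 kb for 25. In 8 cases a member abutted another cluster with no base between them. In the replicate lists the same median was 585 bp (replicate 1) and 509 bp (replicate 2), which average 547 ± 53.7 bp (SD, n = 2), again between the values of the shorter (900.5 and 764 bp) and the longer clusters (406 and 503 bp). The order held in both, with 509 and 503 bp nearly alike in replicate 2. Gaps of this size depend on the joining rule of the caller, which is not given.

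Neighbours of members were longer than clusters in general. Of 6026 flanking clusters, 60.9% were under 4 kb, 28.6% were themselves members and 10.5% measured at least 10 kb. Over all autosomal clusters these classes made up 67.8%, 24.5% and 7.65%. Members again stood between the other classes. The shares were 72.7%, 22.0% and 5.29% beside clusters under 4 kb, and 46.9%, 33.6% and 19.5% beside those of at least 10 kb. Replicate 1 gave 66.7%, 27.1% and 6.26% beside its clusters of 4 to 10 kb, in a list with 73.8%, 22.0% and 4.18%. For replicate 2 the shares were 69.8%, 25.2% and 5.03%, in a list with 75.9%, 20.9% and 3.17%. The shift toward longer neighbours had the same direction in all 3 lists.

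From a member to the next member on the arm the median gap was 12.5 kb, with quartiles of 2.96 and 34.8 kb, and 464 of 3009 such gaps were under 1 kb. Members mostly came alone or in pairs: 1550 had another class on both sides, 418 runs held 2 in a row, 126 held 3 and 47 held 4. Longer runs numbered 10.

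The longest run held 9 members on 3R from 13552785 to 13619684, 66.9 kb in span with 62403 bp in members. Gaps inside it ranged from 15 to 2515 bp. Their scores ran from 0.56 to 1.21, with the highest at 13602864 to 13607364, a member of 4501 bp covered 98.4% by replicate 1 and 85.8% by replicate 2. Over the 9, replicate 1 covered 90.4% and replicate 2 covered 75.4% in the mean, and the lowest value was 47.4%, in replicate 2 at 13595147 to 13602848. The other runs named here were picked after their values were seen. Runs of 8 and 7 lay on 2L at 6367356 to 6423352 and 6258865 to 6309944, with mean cover of 89.7% and 96.2% and of 93.7% and 93.3%. There were 2 runs of 6, both on 3R. The run at 24058234 to 24105939 differed, with 92.2% in replicate 1 and 44.9% in replicate 2. The run at 2346230 to 2387680 had 86.9% and 73.8%.

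Members lay near clusters of at least 10 kb more often than placements or shorter clusters did. Within 5 kb of a cluster of at least 10 kb lay 621 members (20.6%), against 13.2% of all autosomal clusters under 10 kb and 10.5% of those under 4 kb. Regions of the same lengths placed anywhere outside the long clusters would lie that near in 8.43% of positions. The share rose to 29.4% within 10 kb, 42.0% within 20 kb, 63.0% within 50 kb and 78.9% within 100 kb, where placements gave 15.3%, 26.4%, 48.6% and 68.3%. The median distance was 29.0 kb, with quartiles of 7.41 and 83.9 kb, and the farthest member lay 891.2 kb away. Placements may overlap shorter clusters, which members cannot.

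The same excess appeared when the lengths were read in each replicate. In replicate 1, 12.4% of 2621 clusters of 4 to 10 kb lay within 5 kb of its 498 long clusters, against 4.54% of placements. In replicate 2 it was 10.2% of 2384 near 361 long clusters, against 3.34%. The difference from the placements was 7.36 ± 0.768 percentage points (SD, n = 2). Each arm showed it in the combined list, with 15.2% against 6.13% on 2L, 25.5% against 10.7% on 2R, 19.8% against 7.07% on 3L and 22.2% against 9.77% on 3R. From the other side, 552 of 939 long clusters (58.8%) had a member within 5 kb.

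**Figure D4:**
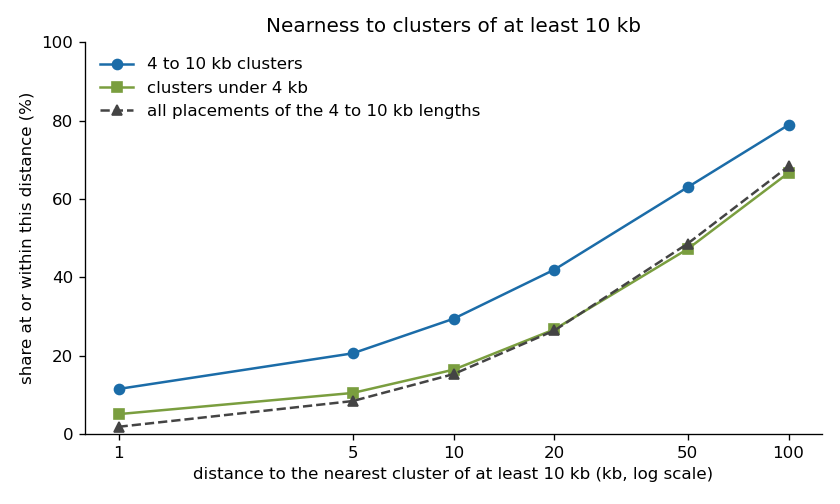
Share of autosomal clusters at or within a given distance (log scale, kb) of the nearest cluster of at least 10 kb, for members, for clusters under 4 kb and for all placements of the member lengths outside long clusters. Members lie above both other lines at each distance, with 20.6%, 10.5% and 8.43% at 5 kb.

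A long cluster stood directly beside 560 members, and 71 had one on each side. Those 71 had a median score of 0.74 and a median length of 6132 bp. Score differed little with distance: the median was 0.67 for members under 1 kb from a long cluster, 0.65 at 1 to 5 kb, 0.66 at 5 to 20 kb, 0.63 at 20 to 100 kb and 0.60 beyond. Mean cover by replicate 1 was 87.2% in the nearest of these steps and 82.1% in the farthest, and by replicate 2 it was 78.3% and 73.4%. These ranges are small beside the quartiles of score within a step, 0.58 and 0.80 in the nearest.

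Along the arms, member density varied between bins. In 192 bins of 500 kb the share in members had a median of 18.7%, quartiles of 14.6% and 22.7% and a range of 2.96% to 43.6%, and bins held 2 to 34 members. The Spearman coefficient across bins was 0.102 between the share in members and that in clusters of at least 10 kb. Between the replicate lists, for the class of 4 to 10 kb, it was 0.696. Between the share in members and that class in a replicate list it was lower, 0.495 for replicate 1 and 0.396 for replicate 2. Bins share libraries and neighbouring sequence, so all are descriptions.

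The fullest bin was 3L 13000001 to 13500000 with 34 members over 43.6% of its length. There the length rule in the replicates gave only 16.2% and 18.7%, while clusters under 4 kb took 31.2% and 31.1%. Next came 2L 19500001 to 20000000 with 39.6% and 2L 6000001 to 6500000 with 39.3%, where the replicate lists gave 28.0% and 29.5%, and 33.0% and 24.8%. The emptiest was 3R 12500001 to 13000000 with 2 members over 2.96%, and 0.844% and 3.38% in the replicates. It was followed by 2L 16000001 to 16500000 with 4.70% and 2L 21000001 to 21500000 with 5.33%.

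The 3 longest stretches without a member lay on 3R and 2L, and the next, of 270.1 kb, on 3L. The longest was 3R 12450696 to 12849284, 398.6 kb, which held 29 clusters under 4 kb and none of at least 10 kb. Clusters of the combined list took 12.9% of it. This stretch overlaps the emptiest bin, 3R 12500001 to 13000000, so these are not separate observations. On the same arm 5200619 to 5597437 spanned 396.8 kb with 39 short and 2 long clusters (30.3%). On 2L, 16932707 to 17236716 spanned 304.0 kb with 61 short clusters (37.6%). All 3 stretches thus held clusters of another length. In 2L 16932707 to 17236716 replicate 1 covered 19.1% and replicate 2 covered 8.34%.

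**Figure D5:**
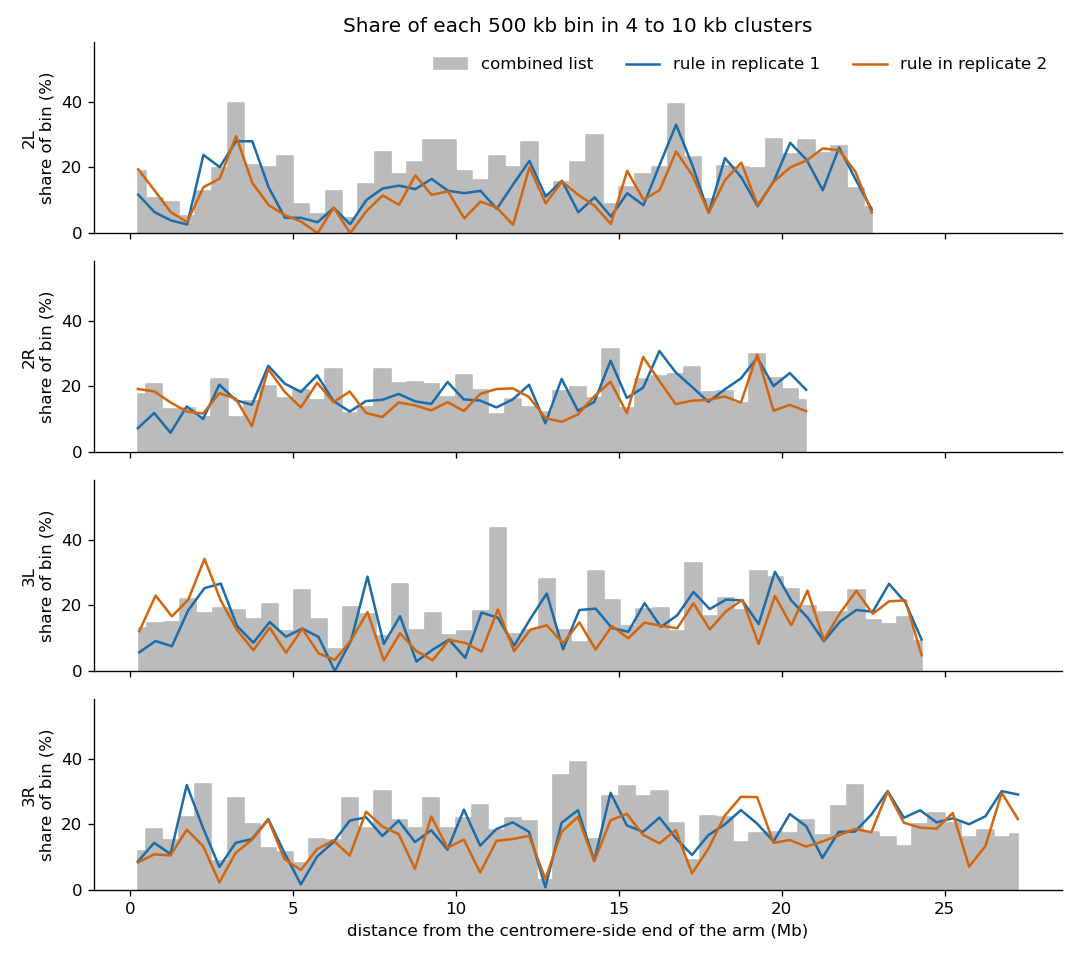
Share of each 500 kb bin in clusters of 4 to 10 kb, by distance in Mb from the centromere-side end of arms 2L, 2R, 3L and 3R; grey steps are the combined list, lines are the length rule in each replicate list. The tallest step is on 3L (43.6%), where both lines are below 20%.

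Toward the centromere, members scored higher on 3 of the 4 arms. In the combined list the median score within 2 Mb of the centromere-side end was 0.86 on 2L (37 members), 0.90 on 2R (54) and 0.88 on 3L (54), against 0.62, 0.66 and 0.62 beyond 5 Mb. On 3R it was 0.64 (55 members) against 0.63. The difference read in each replicate list was 0.24 ± 0.25 on 2L, 0.19 ± 0.14 on 2R, 0.17 ± 0.07 on 3L and -0.04 ± 0.00054 on 3R (SD, n = 2 each). Its direction was the same in both replicates on every arm, and its size differed between them, as on 2L with 0.42 in replicate 1 and 0.07 in replicate 2. On 2L the SD was larger than the difference, and on 2R it was of similar size. In the last Mb at the telomere side of the combined list, the median score was 0.60 on 2L, 0.81 on 2R, 0.71 on 3L and 0.61 on 3R. On 2R and 3L this also lay above the value beyond 5 Mb, so higher scores there were not confined to the centromere side.

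Cover also shifted between the replicates toward the centromere. Across all members replicate 1 covered more of a member than replicate 2 in 2002 cases and less in 1009. In the last Mb before the centromere-side end, replicate 2 covered more in 16 of 24 members on 2L, 22 of 32 on 2R and 18 of 24 on 3L, and in 6 of 26 on 3R. At the telomere side it covered more in 2 of 17, 3 of 27, 5 of 19 and 9 of 25. Within 2 Mb of the centromere side replicate 1 had 23, 33 and 34 clusters of 4 to 10 kb on 2L, 2R and 3L, and replicate 2 had 37, 54 and 62. On 3R it was 55 against 41. The part of repeats near the centromere in these values was not tested.

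Spacing near the centromere side also differed between arms. Within 2 Mb the median gap to the nearer neighbour was 1002 bp on 2L, 829.5 bp on 2R and 970.5 bp on 3L, and 406 bp on 3R, against 414 bp for all members. The share within 5 kb of a cluster of at least 10 kb was 2.70%, 5.56% and 11.1% on 2L, 2R and 3L, and 25.5% on 3R. In the last Mb over all arms it was 2.83% of 106 members, but long clusters were scarce there, at 0% to 7.56% of the 8 bins of 500 kb against 16.4% of the arms. No placement background was computed for these stretches. The median score in the last Mb was 0.97 on 2L, 0.89 on 2R, 0.86 on 3L and 0.64 on 3R. None of these differences was tested.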

How the data were processed

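H3K27me2 ChIP-seq was made from nuclei of wild-type Oregon-R larvae, with 2 ChIP and 2 input samples. The submitters' processing notes name Bowtie 0.12.7 for all samples. The authors deposited 3 lists of regions, 1 for each ChIP replicate and 1 for the replicate set, with a score for each region. Coordinates are, per the file headers, of FlyBase release 5. The sources used here name no caller or thresholds, nor how inputs were used or the lists combined. No counts were given, so the depth is unknown and no counting interval is printed. The inputs have no list used here. The base of the score is not given. Of the distinct scores in the combined list, 245 pairs lay 1 apart within 1e-09.

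Regions typed as enrichment on 2L, 2R, 3L and 3R were kept, with lengths counted from 1 at both ends. Cover is the share of a member's bases inside clusters of a replicate list. Backgrounds were computed over all placements along the same arm, on a grid of 100 bp for counts of members. The functions for cover, distance and nearness were tested on simulated data against direct calculation. For the placements of cover only the mean was tested, and the profile across edges was not. The software was scipy 1.17.1, pandas 2.3.3 and numpy 2.4.6 under Python 3.11.15, with matplotlib 3.10.9 for figures. Alternatives were other length limits, joining of clusters closer than 1 kb (score as the length-weighted mean), a limit on score, trimmed arm ends, other limits for cover and nearness, and each replicate alone.

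The members and lists were chosen with earlier results of these data known. Regions named are the 5 highest and 5 lowest scores, the top score of each arm, those beside both length limits, the 5 with the lowest mean cover, the 3 fullest and 3 emptiest bins of 500 kb, the longest run and the 3 longest stretches without a member. The gene table at hand is of release 6, so gene content and sequence were not analysed here.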

Additional observations from a re-analysis of the deposited data

How the results depend on the processing

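Of 77 alternative values of the main results, 30 moved by more than the spread between replicates (for the number of members, by more than 1.5 times) and 47 by less. Of the 47, 8 say nothing about stability: they leave out a replicate from a mean of 2, which by construction moves it by less than the SD. Numbers, gaps and shares have no sign to reverse. Read in a single replicate list, the median score was 0.70 to 0.89 (0.64 in the combined list), the median gap 509 to 585 bp (414), the share of the arms 14.5% to 16.2% (19.1%) and the share within 5 kb of a long cluster 10.2% to 12.4% (20.6%). Joining clusters closer than 1 kb gave 1952 members, a gap of 1873 bp, 12.9% of the arms, cover of 67.5%, 75.2% covered at least 50%, a rise from edge to interior of 20.0 percentage points, a difference in cover from clusters under 4 kb of 13.7 points (21.4 as reported) and 30.1% near long clusters (placements 17.2%). Keeping scores at or above the list median gave a gap of 1167.5 bp, 15.9% of the arms, a rise of 31.3 points and a class difference of 5.71 points. Length limits of 5 to 10 kb and 4 to 8 kb each gave 14.7% of the arms. The rise was 23.9 points for the list of replicate 1 read in replicate 2 and 14.4 points the other way, where the class difference was 10.6 points. Counting any covered base gave 98.3% and 80% of bases gave 60.7%, against 89.6%. Nearness was 11.5% within 1 kb, 29.4% within 10 kb, 42.0% within 20 kb and 9.39% for long clusters of at least 15 kb (placements 3.74%). The share near long clusters stayed above that of the placements in each setting for which placements were computed. Apart from changes fixed by a setting's own definition, the cause was not tested. No paired analysis was possible because replicate numbers pair a ChIP sample with its input, and the inputs have no list used here.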
